A study of Mus musculus with 8 samples.

Results

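The genes described here encode the subunits of the hypoxia-inducible factors (HIF) and the proteins that sense oxygen and limit HIF. They were taken as a fixed set of 10 symbols (Epas1, Hif1a, Arnt, Egln1, Egln2, Egln3, Vhl, Hif1an, Cited2 and Bnip3), and all 10 were found among the 55357 genes of the count table. RNA with a poly(A) tail was sequenced from bone marrow-derived macrophages (BMDM) of wild-type C57BL/6J mice, which had been grown from femur and tibia marrow with 10 ng/ml M-CSF, the macrophage growth factor, for 5 to 6 days. The 4 So(d18:1) libraries came from cells given 2 μM of the sphingolipid base sphingosine d18:1, dissolved in methanol, for 6 h, and the 4 control libraries from cells given methanol for 6 h. The labels name no inflammatory stimulus, although the paper's text places the cells under one, and neither gives the oxygen level of the cultures, the age of the mice or whether each library came from a separate animal, so that p-values measure the spread between these libraries.

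HIF is a pair of an α subunit and the constant β subunit ARNT, and it binds DNA at short hypoxia response elements. When oxygen is present, prolyl hydroxylases mark the α subunits, the VHL ubiquitin ligase then sends them to the proteasome, and an asparaginyl hydroxylase blocks their contact with the coactivators p300 and CBP. Macrophages carry both α subunits and use HIF-1α above all to switch to glycolysis. Because oxygen acts on the protein, mRNA levels of the α subunits say little about how much HIF protein a cell holds, and no protein was measured in these libraries.

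The libraries held between 17748397 and 26088609 counts. Macrophage markers were abundant, with a summed level of 33208 to 35850 CPM (counts scaled for library size) over 11 genes in control and 28935 to 34053 CPM with So(d18:1). Of the 11, 3 passed an adjusted p under 0.05, where 8.94% of all tested genes did, with Mertk (log2 fold change -0.38) and Cd68 (-0.22) lower and Itgam (0.18) higher, and 9 of 11 had a lower mean. T cell markers reached at most 3 counts in a library. The 8 neutrophil markers all had lower means with So(d18:1), 4 of them past the same threshold, at 1682 to 2325 CPM in sum in control and 1325 to 1506 CPM with So(d18:1). Fewer cells of a type and less RNA per cell cannot be told apart in bulk RNA, and the part of these marker genes in the values below was not tested.

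The sequences before the starts of 3 genes are shown. These are Hif1a, and Egln3 and Bnip3, whose levels followed it most closely among the 10 by Pearson's r, as described further on. Each sequence is the 250 bases upstream of the RefSeq start, on the gene's own strand, from GRCm38.p6, the build called mm10. The Hif1a window lies at chr12:73907617-73907866 on the plus strand, Egln3 at chr12:54203875-54204124 on the minus strand and Bnip3 at chr7:138909507-138909756 on the minus strand. The GENCODE span of Hif1a, given below, begins at 73901375, ahead of the RefSeq start used here, so that its window lies inside that span. Capitals mark ACGTG or GCGTG, the core letters of a hypoxia response element, on either strand, so that a CACGTG counts once on each strand.
Hif1a: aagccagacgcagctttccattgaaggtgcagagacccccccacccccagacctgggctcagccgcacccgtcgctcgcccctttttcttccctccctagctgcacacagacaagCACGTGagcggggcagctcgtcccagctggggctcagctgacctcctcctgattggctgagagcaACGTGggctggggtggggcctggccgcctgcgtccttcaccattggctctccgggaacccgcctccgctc
Egln3: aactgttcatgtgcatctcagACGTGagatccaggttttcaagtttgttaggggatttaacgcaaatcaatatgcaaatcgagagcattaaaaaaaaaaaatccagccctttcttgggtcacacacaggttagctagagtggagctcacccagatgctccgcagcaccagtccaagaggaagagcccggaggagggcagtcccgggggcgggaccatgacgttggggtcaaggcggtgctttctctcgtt
Bnip3: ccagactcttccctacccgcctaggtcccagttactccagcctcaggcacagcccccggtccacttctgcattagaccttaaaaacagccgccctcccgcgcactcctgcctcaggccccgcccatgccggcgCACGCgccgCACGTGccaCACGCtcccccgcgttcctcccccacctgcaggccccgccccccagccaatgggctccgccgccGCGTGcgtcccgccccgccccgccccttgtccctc
The Hif1a window held 3 matches, that of Egln3 1 match and that of Bnip3 5 matches. Of the 10 windows listed for 9 of the genes, 8 held at least 1 match, and the windows of Vhl and Hif1an held none. Genes not shown had matches too, with 2 for Egln1, 1 and 4 for the windows of Egln2, 2 for Cited2 and 1 for Arnt. Levels of Cited2 and Arnt did not move with Hif1a, while those of Egln1 did (Pearson's r of 0.80). The GC content of the 10 windows ran from 48% to 86%, and the shares over all windows given next were not matched for it. Such a match was found in 38.6% of all 32851 windows of this length, and 3 or more in 6.58%. Epas1 was not matched to a window. A match describes letters only and was not tested for binding.

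Hif1a mRNA was by far the most abundant of the 10, and Epas1 mRNA the least. Levels of different genes were compared as CPM per kb of exon, over the exon length deposited with the counts. Hif1a, which encodes HIF-1α, stood at 77.7 ± 5.75 CPM per kb in control and 74.5 ± 5.87 with So(d18:1) (SD, n = 4 each). Epas1, which encodes HIF-2α, stood at 1.67 ± 0.146 and 1.56 ± 0.144 CPM per kb (SD, n = 4 each), so that Hif1a exceeded Epas1 46.7-fold ± 4.84 in control and 47.7-fold ± 2.70 in So(d18:1) libraries. Over the 8 libraries, Cited2 followed Hif1a at 31.3 CPM per kb, then Bnip3 at 27.7, Vhl at 21.03, Egln2 at 16.5, Egln1 at 16.2, Arnt at 14.3, Hif1an at 10.3 and Egln3 at 6.16. Most neighbours in this order kept their places in 8 of 8 libraries. Egln2 and Egln1 did not differ beyond their spread, with Egln2 higher in 4 of 8 libraries, while Cited2 was above Bnip3 and Egln1 above Arnt in 7 of 8. The place of Arnt rests on the length used, since its exons span 8007 bases and its coding transcripts have a median of 2651. Per kb of the latter, Arnt rose to 43.1 CPM and came behind Hif1a and Bnip3, while Hif1a stayed highest and Epas1 lowest.

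**Figure D1:**
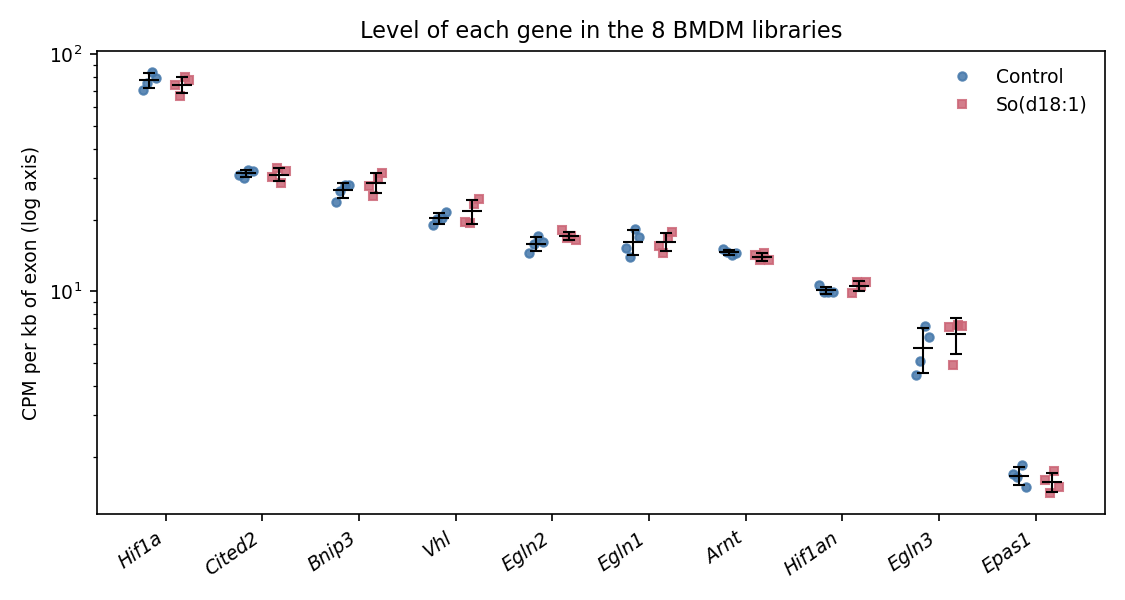
Level of each gene in CPM per kb of exon on a log axis, with a point for each of the 4 control and 4 So(d18:1) libraries and the mean ± SD as black bars. Hif1a lies highest and Epas1 lowest in every library, and the groups overlap in each of the 10 genes.

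None of the 10 mRNAs passed the threshold for a difference between So(d18:1) and control. By edgeR's quasi-likelihood test with Benjamini-Hochberg adjustment over the 14514 genes tested, 0 of the 10 had an adjusted p under 0.05, where 8.94% of all tested genes did, 3.87% higher and 5.07% lower. None had an unadjusted p under 0.05 either, against 23.4% of all tested genes, and 0 of 10 were called by the Wald test of DESeq2 or by limma-voom. At an unadjusted p under 0.05 with a fold change of at least 1.5, 0 of 10 passed, beside 3.89% of tested genes. The groups overlapped in all 10, and did not overlap in 15% of tested genes. The 95% interval of the fold change lay between 1.5-fold lower and 1.5-fold higher for each of the 10, and did so for 72.6% of all tested genes. A smaller change can therefore not be told from none, most of all for Egln3, whose interval was the widest. Of the 10, 6 were higher and 4 lower, where 50.9% of tested genes were higher, with a median log2 fold change of 0.032 beside 0.0036 over all tested genes.

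**Figure D2:**
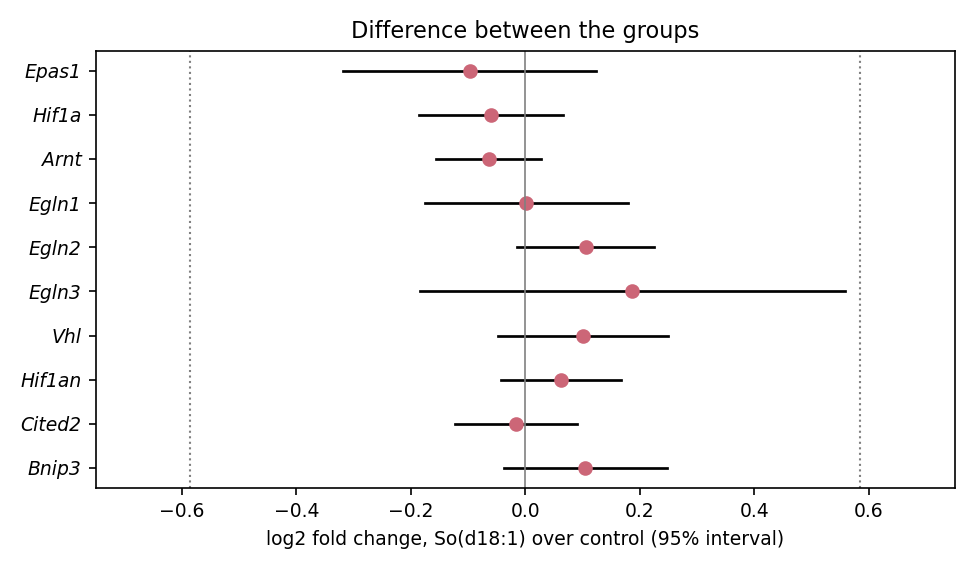
Log2 fold change of So(d18:1) over control with its 95% interval for each gene, and dotted lines at a fold change of 1.5 in either direction. Each interval crosses 0 and stays inside the dotted lines, and the upper end of Egln3 at 0.56 comes nearest to one.

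The subunits all had slightly lower means with So(d18:1), within the replicate error. Epas1 (ENSMUSG00000024140, chromosome 17, 86753700 to 86833410, plus strand, GRCm38) was at 9.43, 9.23, 10.3 and 8.34 CPM in control replicates 1 to 4 and at 8.97, 7.87, 9.74 and 8.38 CPM in So(d18:1) replicates 1 to 4. All So(d18:1) values lay below the highest control, and 3 of 4 below the control mean. The 95% interval ran from 0.802-fold to 1.09-fold of control, on 160 to 245 counts per library. Hif1a (ENSMUSG00000021109, chromosome 12, 73901375 to 73947530, plus strand) was at 417, 447, 497 and 470.3 CPM in controls, against 438, 391, 470.4 and 457 CPM with So(d18:1). Its lowest level was in So(d18:1) replicate 2 and its highest in control replicate 3, and the interval ran from 0.879-fold to 1.05-fold. Exons of Hif1a overlap Gm49321 on the same and Gm15283 on the other strand, so that some of its counts may belong to them. Arnt (ENSMUSG00000015522, chromosome 3, 95434388 to 95497240, plus strand) was at 121, 117, 114 and 116 CPM in controls, against 114, 108, 117 and 108 CPM with So(d18:1). Its 4 So(d18:1) values were all below the control mean, with an interval of 0.898-fold to 1.02-fold.

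The mean log2 ratios between the subunits differed between the groups by less than the SD within either group. Ratios of counts within a library were compared, which do not depend on scaling between libraries. In all, 4 ratios were tested by two-sided exact permutation tests, which cannot give a p under 0.0286 with 4 against 4. After adjustment over the 4 ratios, a single ratio at this limit could not pass the threshold, however far apart its groups lay. The adjusted p-values below therefore cannot show that the balance between the subunits held. The log2 ratio of Epas1 to Hif1a per exon length was -5.54 ± 0.146 in control and -5.57 ± 0.0796 with So(d18:1) (SD, n = 4 each, exact permutation p = 0.743, adjusted p = 0.971). That of Epas1 to Arnt was -3.13 ± 0.140 and -3.16 ± 0.0819 (SD, n = 4 each, exact permutation p = 0.714, adjusted p = 0.971). The ratio of Hif1a to Arnt was 2.41 ± 0.147 and 2.41 ± 0.0948 (SD, n = 4 each, exact permutation p = 0.971, adjusted p = 0.971). Per length of coding transcripts, the control levels of these 3 ratios were -5.95, -4.71 and 1.24, so that those with Arnt depend on the length used. The differences between the groups do not depend on length. Epas1 thus made up 2.11% ± 0.204 of the α subunit mRNA per exon length in control and 2.06% ± 0.109 with So(d18:1) (SD, n = 4 each).

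The prolyl hydroxylases PHD2, PHD1 and PHD3 are encoded by Egln1, Egln2 and Egln3, of which Egln3 and Egln1 are themselves induced by HIF. Egln1 (ENSMUSG00000031987, chromosome 8, 124908587 to 124949324, minus strand) was at 54.9, 50.3, 65.9 and 61.0 CPM in controls, against 55.7, 52.3, 60.3 and 63.9 CPM with So(d18:1). The groups covered nearly the same range, and the sign of its log2 fold change of 0.0017 turned with the scaling. Egln2 (ENSMUSG00000058709, chromosome 7, 27158658 to 27166802, minus strand) was at 40.7, 44.3, 47.8 and 45.1 CPM in controls, against 50.6, 47.0, 47.8 and 46.3 CPM with So(d18:1). All 4 So(d18:1) values lay above the control mean and 1 above the highest control. With a log2 fold change of 0.11 with a standard error of 0.057, Egln2 had the smallest p of the 10, which did not pass (adjusted p = 0.280, edgeR's quasi-likelihood test). An exon of Egln2 overlaps Cyp2t4 on the other strand, and reads of the pair cannot be told apart without strand.

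Egln3 (ENSMUSG00000035105, chromosome 12, 54178981 to 54203860, minus strand) varied most. It was at 11.8, 13.5, 18.9 and 17 CPM in controls, against 18.9, 13.0, 19.1 and 18.9 CPM with So(d18:1). So(d18:1) replicate 2 lay below 3 of the controls while the other 3 So(d18:1) libraries stood at the level of the highest control. The log2 fold change was 0.19 with a standard error of 0.17 (adjusted p = 0.557, edgeR's quasi-likelihood test), with an interval of 0.880-fold to 1.47-fold, and moved from 0.089 without control replicate 1 to 0.31 without So(d18:1) replicate 2, not passing in either (lowest adjusted p of the 8 fits on 7 libraries, 0.203). Of the summed PHD mRNA per exon length, Egln1 made up 42.7% ± 1.89, Egln2 42.2% ± 2.31 and Egln3 15.1% ± 1.69 in control libraries, and 40.5% ± 1.97, 43.1% ± 2.84 and 16.4% ± 1.94 with So(d18:1) (SD, n = 4 each). The log2 ratio of Egln3 to Egln1 was -1.51 ± 0.188 in control and -1.31 ± 0.191 with So(d18:1) (SD, n = 4 each, exact permutation p = 0.229, adjusted p = 0.914).

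Downstream of the prolyl hydroxylases, VHL is the subunit of the ubiquitin ligase that recognises hydroxylated HIF-α, and Hif1an encodes FIH, the asparaginyl hydroxylase. Vhl (ENSMUSG00000033933, chromosome 6, 113623959 to 113631633, plus strand) was at 57.2, 60.7, 61.2 and 64.5 CPM in controls, against 58.9, 58.3, 69.99 and 73.7 CPM with So(d18:1). So(d18:1) replicates 3 and 4 were above each control, and replicates 1 and 2 were within the control range, with an interval of 0.967-fold to 1.19-fold. Hif1an (ENSMUSG00000036450, chromosome 19, 44562850 to 44576274, plus strand) was at 70.2, 65.9, 65.7 and 65.4 CPM in controls, against 64.7, 72.1, 69.3 and 72.5 CPM with So(d18:1). Its interval of 0.971-fold to 1.12-fold was among the narrowest, and control replicate 1 stood above the other controls.

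Cited2 encodes a protein that competes with HIF-α for p300 and CBP, and Bnip3 encodes a receptor for mitophagy, the removal of mitochondria. Both are HIF targets. Cited2 (ENSMUSG00000039910, chromosome 10, 17723218 to 17725674, plus strand) was at 76.3, 74.0, 79.8 and 79.2 CPM in controls, against 74.5, 81.6, 70.5 and 78.8 CPM with So(d18:1), with 2 So(d18:1) values on each side of the control mean. Bnip3 (ENSMUSG00000078566, chromosome 7, 138890836 to 138909519, minus strand) was at 54.1, 59.99, 63.7 and 63.8 CPM in controls, against 62.9, 57.3, 68.3 and 71.3 CPM with So(d18:1). So(d18:1) replicate 2 was again low, and the interval ran from 0.974-fold to 1.19-fold. Of the 50-base words of the Bnip3 transcripts, 47.2% also occur in other genes, with AC160336.1, Gm45507 and Gm16439 holding most, so that its level is uncertain.

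The difference between libraries of one group was larger than that between the groups for several of the genes, and some of them shared it. Each library's log2 CPM was taken as a deviation from its group mean. For Hif1a the deviations were -0.13, -0.03, 0.12 and 0.04 in control replicates 1 to 4, and So(d18:1) replicate 2 was lowest at -0.16. Egln3 deviated by -0.35, -0.16, 0.33 and 0.17 in the same controls and by -0.40 in So(d18:1) replicate 2. Over the 8 libraries, Pearson's r of the deviations with those of Hif1a was 0.96 for Egln3, 0.93 for Bnip3, 0.80 for Egln1, 0.72 for Vhl, 0.60 for Egln2 and 0.54 for Epas1. It was -0.043 for Arnt, -0.26 for Cited2 and -0.43 for Hif1an, and the median over all 14514 tested genes was -0.0061. Spearman's rho was 0.93 for Egln3, 0.79 for Bnip3 and 0.86 for Egln1. Without So(d18:1) replicate 2 and control replicate 1, the libraries farthest from the median in Hif1a, r over the other 6 was 0.83 for Egln3, 0.69 for Bnip3 and 0.88 for Egln1, but 0.46 for Vhl and 0.20 for Egln2, so that the values of Vhl and Egln2 rest on these libraries. The deviations were still those from the group means over all libraries, with the left-out libraries included. The sign of r turned for Cited2, to 0.22, and for Hif1an, to 0.36. An r above that of Egln3 over all 8 libraries was found for 0.124% of tested genes, and above that of Bnip3 for 0.469%. These values describe 8 libraries whose genes share a culture, an extraction and a scaling, and the comparison was made after the levels were seen.

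**Figure D3:**
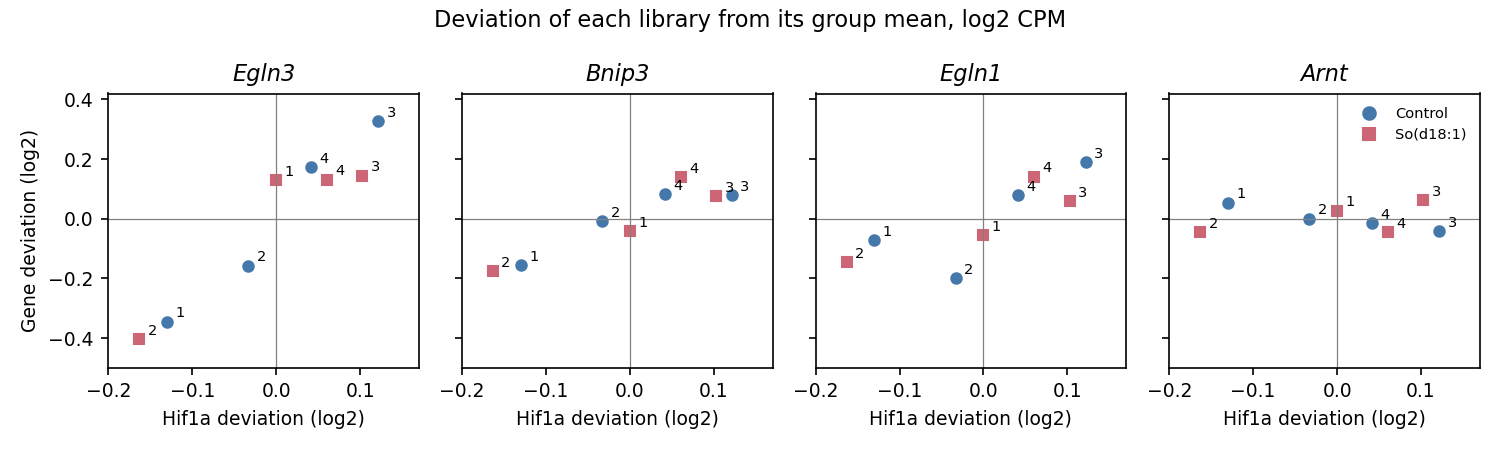
Deviation of each library's log2 CPM from its group mean, for Hif1a on the x axis and Egln3, Bnip3, Egln1 or Arnt on the y axis, with the replicate number beside each point. So(d18:1) replicate 2 and control replicate 1 lie low and control replicate 3 high in Hif1a, Egln3 and Bnip3, while Arnt stays near 0.

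Control replicates fell into pairs over the whole table too, and the labels give no batch. The chi-square per gene between control replicates 1 and 2 was 2.76 and between 3 and 4 was 3.78, but between 5.75 and 12.2 across these pairs. Among the So(d18:1) libraries, replicates 1 and 3 were closest at 2.82, with 5.53 to 7.62 for the other pairs. Control replicates 1 and 2 were the lower ones in Hif1a, Egln1, Egln2, Egln3, Vhl, Cited2 and Bnip3, and the higher ones in Arnt and Hif1an. The part of this division in the levels of these genes, and in how they moved together, was not tested.

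Some known HIF targets had deviations like those of Hif1a, and others did not. Of 33 tested genes in a list of hypoxia-induced targets, 15 had a deviation with an r of at least 0.7 to that of Hif1a (45.5%) and 18 did not. Of all tested genes, 8.03% were at or above this limit, which was chosen after the values were seen. The list was also chosen with earlier results of these data known, so that this larger share cannot be read as an enrichment. The corresponding count was 1 of 23 for a list of HIF degradation factors, cofactors and other oxygen sensors, 2 of 12 for mitophagy receptors and 1 of 13 for transcription and translation inputs to Hif1a. Over all 11556 tested genes with a mean log2 CPM of at least 1, the log2 CPM of Plekhf2, Pik3ap1 and Epb41l1 was most like that of Hif1a (r of 0.98, 0.97 and 0.95 over 8 libraries), and that of Plxna4os1, Ago1 and Star most like that of Epas1 (0.96, 0.96 and 0.95).

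Among the other genes of the pathway, the machinery around HIF did not change past the threshold either. Of the 28 genes listed as HIF degradation factors, cofactors and other oxygen sensors, 23 were tested and 0 were called by edgeR's quasi-likelihood test, beside 8.94% of all tested genes. An unadjusted p under 0.05 was found for 6 of 23, beside 23.4% of all tested genes. The median log2 fold change was 0.058. Most were slightly higher, 17 against 6 lower, where 50.9% of all tested genes were higher. Their summed level was 3581 to 3714 CPM in control and 3747 to 3925 CPM with So(d18:1), a sum in which abundant genes weigh most. The α subunit gene Hif3a and the β subunit gene Arnt2 were at or near 0, with at most 3 counts and 1 count in a library. The smallest p was that of Hsp90ab1, a chaperone of HIF-α, at 794 ± 30.5 CPM in controls, against 873 ± 47.4 CPM with So(d18:1) (SD, n = 4 each). The log2 fold change of Hsp90ab1, 0.14, did not pass (adjusted p = 0.0680, edgeR), but passed in the DESeq2 Wald test (adjusted p = 0.0343) and in edgeR without So(d18:1) replicate 3 (adjusted p = 0.0413). Usp20, a deubiquitinase of HIF-1α, and Os9, a lectin reported to bind HIF-1α, had log2 fold changes of 0.20 (adjusted p = 0.0810, edgeR) and 0.11 (adjusted p = 0.117, edgeR).

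The hypoxia-induced targets moved in both directions. Of 39 listed genes in the table, 33 were tested and 6 were called, 4 higher and 2 lower, or 18.2% beside 8.94% of all tested genes. The list was chosen with earlier results of these data known, so that this larger share cannot be read as an enrichment. Their median log2 fold change was 0.010. The members that rose were Ddit4, an inhibitor of mTORC1, Ndrg1, a stress-responsive gene, the glycolytic enzyme gene Pgk1 and Mxi1, an antagonist of Myc. Ddit4 was at 10.5, 10.99, 9.82 and 10.98 CPM in controls, against 15.4, 17.3, 20.9 and 19.2 CPM with So(d18:1). Its log2 fold change was 0.78 with a standard error of 0.096 (adjusted p = 1.3e-05, edgeR's quasi-likelihood test). The groups did not overlap in any of the 6, beside 15% of all tested genes. Since the 6 were picked by a small p, this adds no support of its own. Ndrg1 rose by 0.48 on the log2 scale with a standard error of 0.12 (adjusted p = 0.0301, edgeR), from 40.5, 42.5, 29.6 and 31.1 CPM to 46.3, 54.5, 51.2 and 48.9 CPM. Its controls were high in replicates 1 and 2, the libraries that were low in Egln3. Pgk1 rose by 0.19 (adjusted p = 0.0117, edgeR), although 53.9% of its 50-base words occur in other genes, Pgk1-rs7 among them, and Mxi1 by 0.17 (adjusted p = 0.0328, edgeR).

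The targets that fell were Tfrc, the transferrin receptor for iron uptake, and Bhlhe41, a transcriptional repressor. Tfrc was at 164, 162, 201 and 170.2 CPM in controls, against 148, 139, 141 and 141 CPM with So(d18:1), a log2 fold change of -0.30 with a standard error of 0.058 (adjusted p = 0.00295, edgeR). Bhlhe41 had a log2 fold change of -0.65 with a standard error of 0.14 (adjusted p = 0.00705, edgeR), with 9.38, 8.72, 14.0 and 13.5 CPM in controls, against 6.88 to 7.92 CPM with So(d18:1). Exons of Bhlhe41, Mxi1 and Ndrg1 overlap genes on the other strand. Of these 6 calls, that of Ndrg1 was lost without control replicate 4 and without So(d18:1) replicate 2, 3 or 4, that of Mxi1 without control replicate 1 or 2 and without So(d18:1) replicate 3 or 4, and that of Pgk1 without So(d18:1) replicate 2 (adjusted p = 0.0576, edgeR).

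Of 12 tested mitophagy receptors and adaptors, 1 was called, Pink1, the kinase that marks damaged mitochondria. Its level was 155 ± 6.11 CPM in controls, against 178 ± 11.2 CPM with So(d18:1) (SD, n = 4 each). Pink1 thus rose by a log2 fold change of 0.20 with a standard error of 0.049 (adjusted p = 0.0102, edgeR). Of 13 transcription and translation inputs to Hif1a, 1 was called, Eif4ebp1, a repressor of cap-dependent translation under mTORC1. Eif4ebp1 rose by 0.20 on the log2 scale with a standard error of 0.062 (adjusted p = 0.0467, edgeR), and lost this call in 6 of the 8 fits on 7 libraries, all but those without control replicate 3 or So(d18:1) replicate 3. Each list called a share near that of all tested genes, 8.33% and 7.69% beside 8.94%. Of the mitophagy genes 10 were higher and 2 lower, and of the inputs 7 were higher and 6 lower, beside 50.9% higher among all tested genes. In sum the mitophagy genes were at 1936 to 1996 CPM in control and 2012 to 2154 CPM with So(d18:1). The inputs were at 1748 to 1798 CPM in control and 1727 to 1798 CPM with So(d18:1).

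**Figure D4:**
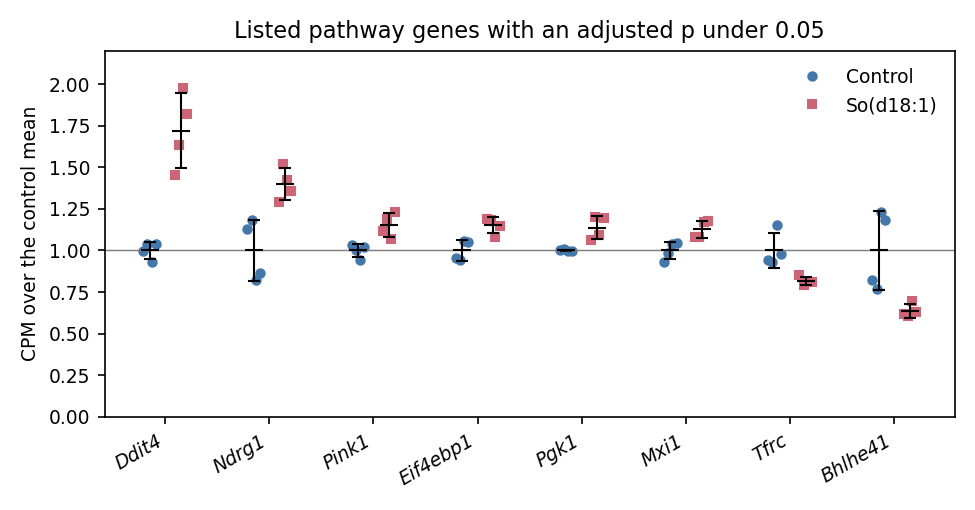
CPM of each library over the control mean for the 8 pathway genes with an adjusted p under 0.05, with the mean ± SD as black bars. Ddit4, Ndrg1, Pink1, Eif4ebp1, Pgk1 and Mxi1 lie above and Tfrc and Bhlhe41 below the controls in each of the 4 So(d18:1) libraries. The genes were picked by this p, which favours such a separation.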

How the data were processed

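Gene counts of 4 control and 4 So(d18:1) BMDM libraries were used. Reads were trimmed by the authors (Trim Galore 0.6.7), mapped to mm10 with HISAT2 2.2.1 and counted with featureCounts 2.0.1, and the deposited values are whole-number counts per gene, not normalized, beside a gene length. Strand setting and treatment of reads with several matches are not given in the sources used here. Symbols, positions and overlaps came from GENCODE M21 (GRCm38).

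The counts were filtered with filterByExpr, scaled by TMM and tested in R 4.3.3 with edgeR 4.0.16 (robust quasi-likelihood F test, Benjamini-Hochberg adjustment over 14514 genes). Standard errors were obtained by dividing the size of the log2 fold change by the square root of F, and intervals are 95%. CPM use TMM-scaled library sizes, and log2 CPM a prior count of 2. In counts simulated for this comparison, 178 of 193 changed genes were called, 9.18% of calls were false, and 95.4% of intervals held the true value over 14332 genes. The share of false calls thus lay above the 0.05 of the adjusted threshold. Fewer genes were changed there than the 1298 called in the data, so that both shares may differ in the data. The share recovered holds for the sizes of change simulated and says nothing of smaller ones. DESeq2 1.42.0, limma 3.58.1, other scalings and filters, and leaving out each library were the alternatives. The genes and lists were chosen with earlier results of these data known. Named list genes are those that passed, up to 8 per list, or else the 3 with the smallest p. Vegfa is named besides because the paper measured it. The numbers of replicates were not treated as pairs, since the deviations of same-numbered libraries correlated at -0.0035 to 0.10.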

Additional observations from a re-analysis of the deposited data

Results flagged for a closer look

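Egln3 in So(d18:1) replicate 2 lay apart from its group, at a log2 CPM of 3.71 where the other 3 libraries had 4.25 to 4.26. The gap took up 0.971 of the range of the group, above the limit of Dixon for 4 samples. The same held for Hif1an in control replicate 1, with 6.14 where the other 3 had 6.03 to 6.04, a gap of 0.893 of the range. Of 42 groups of libraries checked in this way 2 passed the limit, and 2.1 would by chance.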

How the results depend on the processing

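None of the 10 HIF and oxygen-sensing genes was called under the other scalings, filters, tests and call rule, in the replicate block or with one library left out. A further fit, chosen after seeing the data, left out control replicate 3 and So(d18:1) replicate 2 for their Hif1a levels and called Egln3 as higher. It was dropped because choosing libraries by a measured outcome moves the groups apart, and its values are not given. Under the former settings the signs held, except for Egln1 at -0.00074 with DESeq2 size factors, -0.010 with upper quartile scaling and -0.0046 with at least 10 counts in every library, and for Egln1 (-0.061 to 0.070) and Cited2 (-0.049 to 0.023) with one library left out. The 1298 genes called became 564 by the fold change rule (1.5-fold or more, p not adjusted), and 815 (without So(d18:1) replicate 2) to 1370 with one library left out. HIF degradation factors had 0 to 1 calls with one library left out and 1 without a filter, in the replicate block and with the Wald test of DESeq2. The hypoxia-induced targets had 4 to 8 calls with one library left out, 9 without a filter and 2 by the fold change rule, against 6, and mitophagy receptors 0 by that rule. The inputs to Hif1a had 0 to 1 with one library left out, 2 without a filter and in the replicate block, and 0 with DESeq2 size factors, upper quartile scaling, at least 10 counts, limma-voom and the fold change rule. The cause was not tested. With one library left out, the log2 ratios ranged from -0.10 to 0.016 for Epas1 to Hif1a, -0.079 to 0.033 for Epas1 to Arnt, -0.058 to 0.057 for Hif1a to Arnt and 0.10 to 0.28 for Egln3 to Egln1 (highest without So(d18:1) replicate 2, exact permutation p = 0.0571, adjusted p = 0.229).

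The replicate block, a fit with the replicate number of the titles, called 1784 genes and 12 of the hypoxia-induced targets. Of the 4 pairs of equal number, 1 correlated above 0.1, and 1 of 4 control and 2 of 4 So(d18:1) libraries correlated best with their own number, so that the pairing was not used. Epas1 had the fewest counts of the 10, 160 to 245 per library.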
